A study of Mus musculus with 94 samples.

Results

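Brain gene expression was compared between Mgmt-/- and wild-type (wt) mice 48 hr after an injection of vehicle, that is, with no genotoxin given. The comparison holds 11 of the 94 arrays of the series, and they were chosen by genotype, agent and time in the sample titles: 6 arrays of Mgmt-/- mice and 5 of wt mice. All were 11-week-old male C57BL6 mice, the Mgmt-/- mice being bred on that background. Each received a single intraperitoneal injection of dilute acetic acid in saline, and each array measured the RNA of 1 half-brain of 1 animal. The other arrays come from brains taken at 6, 24 or 168 hr, or after methylazoxymethanol (MAM), a DNA-alkylating cycad genotoxin. The animal numbers form 2 sets within each genotype, which were taken to be the 2 laboratories of the study. Set 1 holds 3 Mgmt-/- mice (MGMT.VEH.48.313, MGMT.VEH.48.315 and MGMT.VEH.48.317) and 2 wt mice (WT.VEH.48.113 and WT.VEH.48.115), and set 2 holds 3 Mgmt-/- mice (MGMT.VEH.48.913, MGMT.VEH.48.915 and MGMT.VEH.48.917) and 3 wt mice (WT.VEH.48.713, WT.VEH.48.715 and WT.VEH.48.717). Where 5 wt values are given, they follow this order. The laboratory behind each set is not stated.

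Mgmt encodes O6-methylguanine-DNA methyltransferase, which takes the alkyl group off the guanine base and is used up in doing so. Without it, O6-methylguanine persists and mispairs with thymine when DNA is copied, and the mismatch repair proteins act on the mispair. In vehicle-treated brain, made mostly of cells that no longer divide, the comparison asks how far transcript levels of the 2 mouse lines differ before any alkylating agent is given. Whether the 2 genotypes were littermates is not stated, so that the missing gene and any other difference between the lines cannot be told apart. Nothing ties an array to a day of extraction or hybridisation either, so that genotype and such batches cannot be told apart. Each half-brain is bulk tissue, in which fewer cells of a type and less RNA per cell cannot be told apart.

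Levels are RMA values on a log2 scale, on which a difference of 1 is a 2-fold change, and are given for each probe set, a group of short probes to 1 stretch of transcript. Calls come from a limma fit with genotype and number set as terms. A call needed an adjusted p below 0.05 and more than a 1.3-fold difference, and 1 called probe set was enough for a gene. The Mgmt-/- brains had 422 genes called higher and 628 called lower, which is 2.32 and 3.45% of the 18194 genes measured (5.71% either way, and 3.02% of the probe sets), and 12 genes had probe sets called in both directions. Of 8776 genes whose probe set with the smallest p had a mean level above 6, 356 were called higher and 481 lower. These are larger shares than over all genes. The shares of all genes set beside gene lists below are matched neither for level nor for the number of probe sets. Most differences were modest. The called probe sets had a median difference of 0.50 among the 526 higher and -0.55 among the 834 lower, and 11 genes were over 2-fold higher and 39 over 2-fold lower. Over all genes the median difference was 0.01, and at an unadjusted p under 0.05 there were 7215 of 45101 probe sets.

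The arrays were not all alike. MGMT.VEH.48.313 and MGMT.VEH.48.315 stood apart from the other 9 on the first principal component (24.2% of the variance), WT.VEH.48.113 was lowest on the next one (21.5%), and MGMT.VEH.48.317 and WT.VEH.48.113 had the lowest array weights (0.286 and 0.332). Without the first pair 1.15% of genes were called higher and 2.52% lower, and without the second pair 3.57 and 4.56%. The RNA 3'/5' index, the mean 3' minus 5' log2 level of the beta-actin and Gapdh control probe sets, was 0.423 ± 0.056 (SD, n = 6) in Mgmt-/- brain and 0.33 ± 0.031 (SD, n = 5) in wt brain (exact permutation test within number sets, two-sided, p = 0.025, with 0.01 the smallest p possible). The beta-actin pair differed by 0.177 and the Gapdh pair by 0.009. With the index as a covariate 1.48% of genes were called higher and 0.687% lower, and 312 of the 1360 called probe sets kept their call. Their median difference over all 1360 was then 0.58 among the higher and -0.49 among the lower, with a median standard error of 0.15 in place of 0.11. The part of RNA quality in the results was not tested beyond this.

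The 2 number sets, which share no animals, gave differences of the same sign for 58% of all probe sets, and across probe sets the differences had a Pearson correlation of 0.38. All 1360 called probe sets had the same sign in both sets, as a fit over both sets favors. Of these, 768 had no overlap between the 6 Mgmt-/- and 5 wt values; over all probe sets 1477 of 45101 (3.27%) had none. Tested as an interaction, 2 probe sets differed between the sets. Anp32a, a nuclear protein that inhibits histone acetylation, was lower by 0.37 in set 1 and by 2.11 in set 2 (adjusted p = 0.0137), and a probe set of Nipbl, the cohesin loader, had differences of -0.52 and 0.88 (adjusted p = 0.0137). At an unadjusted p under 0.05 the interaction picked 3236 probe sets.

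**Figure D1:**
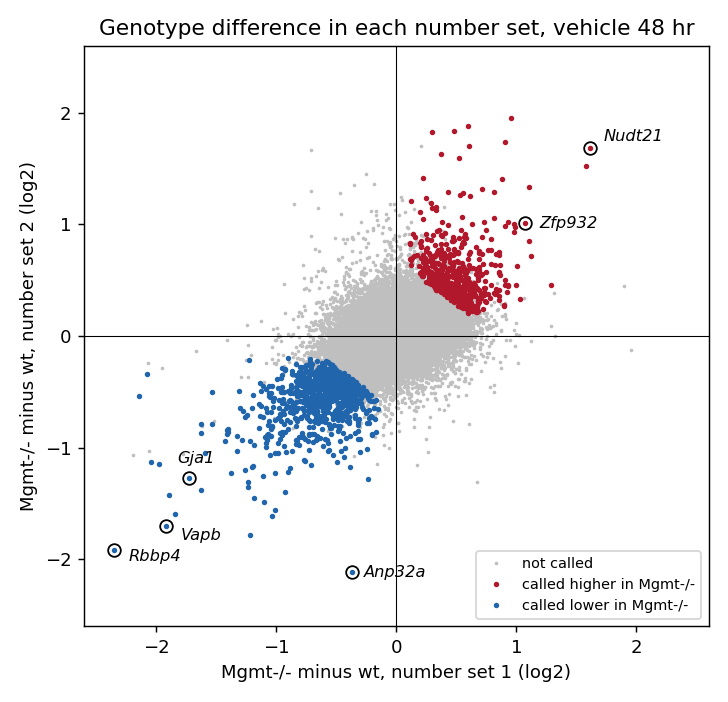
Mgmt-/- minus wt difference (log2) of every probe set in number set 1 (horizontal) and number set 2 (vertical) at 48 hr after vehicle; red and blue points were called higher and lower in Mgmt-/-, gray points were not called, and ringed points are labeled. Nudt21 lies far out at 1.61 and 1.68 and Rbbp4 at -2.35 and -1.92, while Anp32a lies at -0.37 and -2.11.

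Mgmt itself did not mark the genotypes on this array. Its single probe set ranged over 5.34, 5.63 and 6.25 (lowest, median, highest) in the 6 Mgmt-/- brains, against 5.66, 5.73, 5.84, 6.05 and 5.86 in the wt brains. The groups overlapped, and the difference was -0.13 ± 0.15 (SE, adjusted p = 0.76). Where its probes lie relative to the disrupted part of the gene is not stated, so that this level does not check the labels. Of 259 measured genes that lie within 10 Mb of Mgmt on chromosome 7 (GRCm38.p6 annotation), 3 were called higher and 5 lower, where 2.32 and 3.45% of all genes were. The higher ones were Ptpre, a receptor tyrosine phosphatase (0.54), Zfp668 (0.43) and Sez6l2 (0.42), and the lower ones Inpp5f, a phosphoinositide phosphatase (-0.68), Sephs2, which makes the selenium donor for selenoproteins (-0.67), the RNA-binding protein Tial1 (-0.61), the clathrin adaptor subunit Ap2a2 (-0.55) and Ric8a (-0.46). Leaving out 1 animal ended the call of Zfp668 in 9 of 11 runs, of Sez6l2 and Inpp5f in 8 each, of Ap2a2 in 7 and of Ric8a in 5. All of the called neighbors but Ptpre lost the call with the RNA index as a covariate. The neighbors had a median difference of 0.01, as all genes did.

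Nudt21 had the largest rise. It encodes the 25 kDa subunit of cleavage factor I, which binds pre-mRNA and takes part in the choice of the site where the transcript is cut and polyadenylated. The probe set with the smallest p read 9.27, 9.54 and 9.66 (lowest, median, highest) in Mgmt-/- brains, against 7.96, 7.98, 7.97, 7.80 and 7.52 in wt brains. No value of one group came near the other, and the level was 3.14-fold higher (log2 1.65 ± 0.09 SE, adjusted p = 7.49e-07). A second probe set was higher by 1.55 (adjusted p = 3.48e-06). The other Nudt21 probe sets differed by 0.19 and -0.13 and were not called.

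Hmgxb4, a high mobility group protein, read 6.89, 7.03 and 7.31 in Mgmt-/- brains, against 5.89, 6.02, 5.24, 5.23 and 5.25 in wt brains. All Mgmt-/- values lay above all wt values, and the difference was larger in set 2 (1.96) than in set 1 (0.96), without the interaction passing the test (adjusted p = 0.121). Zfp932, a zinc finger protein with 1 probe set on the array, read 7.91, 8.07 and 8.29 in Mgmt-/- brains, against 6.81, 7.08, 6.98, 7.20 and 7.27 in wt brains. That 2.05-fold rise was even between the sets (1.07 and 1.01) and had the adjusted p of 3.25e-05. Zfp445, another zinc finger protein, which helps to maintain genomic imprints, was 2.12-fold higher, with 8.22, 8.65 and 8.80 in Mgmt-/- brains and 7.54, 7.67, 7.48, 7.50 and 7.4 in wt brains. The brightest other probe sets of Hmgxb4 and Zfp445 were brighter than the called ones. They differed by -0.015 and 0.035 and were not called.

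Rph3a, which binds synaptic vesicles through Rab3, was 2.58-fold higher, at 8.53 ± 0.25 in Mgmt-/- brain and 7.16 ± 0.34 in wt brain (SD, n = 6 and 5). Kcnma1, the pore of the BK calcium-activated potassium channel, was 2.48-fold higher, and Nell2, a secreted neuronal glycoprotein, 1.95-fold higher. The cGMP-dependent kinase Prkg1 was 2.07-fold higher and Akap9, a scaffold for protein kinase A, 2.35-fold higher. The remaining genes among the 15 largest rises were the chromatin remodeler Atrx, the maternally expressed long RNA Meg3, the MAP kinase pathway inhibitor Spred2, Secisbp2l, the nonsense-mediated decay kinase Smg1 and the Arf GTPase activator Agap1, with differences between 0.97 and 1.21. The brightest other probe sets of Atrx, Secisbp2l and Smg1 differed the other way, by -0.161, -0.335 and -0.236. Those of the other genes named in this paragraph differed by 0.071 (Nell2) to 0.346 (Kcnma1). In 10 of the 15 largest rises the groups did not overlap, which picking the largest differences in these same arrays favors. Spred2 was the exception among the named rises when animals were left out: its adjusted p was 0.0439 with all animals, WT.VEH.48.115 read 7.72 where the other wt mice read 5.20 to 6.07, and it lost the call in 9 of 11 runs that each left out 1 animal.

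Rbbp4 had the largest fall. It is a histone-binding WD-repeat protein shared by the CAF-1, NuRD and Polycomb complexes. The called probe set read 6.84, 7.24 and 7.46 in Mgmt-/- brains, against 9.49, 9.50, 9.34, 9.48 and 8.77 in wt brains. The groups lay more than 1 log2 unit apart and the level was 4.32-fold lower (log2 -2.11 ± 0.14 SE, adjusted p = 3.48e-06). The other Rbbp4 probe sets, the brightest of them at 10.98 in Mgmt-/- brain, differed by -0.51, -0.15 and 0.07.

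Vapb, an endoplasmic reticulum membrane protein in which dominant mutations cause a familial form of amyotrophic lateral sclerosis in people, read 5.88, 6.92 and 7.63 in Mgmt-/- brains, against 9.41, 9.35, 7.78, 7.92 and 8.30 in wt brains. Set 1 lay higher than set 2 in both genotypes, and within each set the difference was similar (-1.92 and -1.71). Its brightest other probe set, at 9.08 in Mgmt-/- brain, differed by 0.08. Norad, a cytoplasmic long RNA that binds Pumilio proteins, was 3.26-fold lower on 1 probe set and differed by -0.01 on a much brighter one.

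Sp3, a transcription factor of GC-rich promoters with 1 probe set, read 5.69, 6.04 and 6.50 in Mgmt-/- brains, against 8.0, 8.0, 7.72, 7.67 and 6.95 in wt brains, a 3.11-fold lower level with no overlap. Gja1, the astrocyte gap junction protein connexin 43, was 2.78-fold lower on 1 probe set, while its other 5 probe sets had differences between -0.22 and -0.41 and were not called. The other large falls included the 14-3-3 protein Ywhag (2.90-fold), the translation regulator Cpeb2 (2.90-fold), the postsynaptic density scaffold Dlg4 (2.49-fold), the palmitoyltransferase Zdhhc17 (2.49-fold), the deubiquitinase Usp9x (2.46-fold), the kinase Dyrk1a (2.45-fold), the clathrin adaptor subunit Ap2b1 (2.52-fold), Gas7 (2.56-fold) and the trophoblast glycoprotein Tpbg (2.42-fold). In 14 of the 15 largest falls the groups did not overlap, Ap2b1 being the one that did: its Mgmt-/- values of set 1 (8.52, 8.50 and 8.49) lay among the wt values of set 2 (8.30, 8.44 and 9.01). Picking the falls by size in these same arrays favors such a lack of overlap. The brightest other probe sets of Gas7 and Anp32a differed the other way, by 0.145 each, and that of Zdhhc17 by -0.01. Those of Ywhag, Cpeb2, Dlg4, Usp9x, Dyrk1a, Ap2b1 and Tpbg were lower, as the called ones were. Of the 30 largest rises and falls 26 kept the call with the RNA index as a covariate, and Meg3, Spred2, Smg1 and Anp32a lost it.

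**Figure D2:**
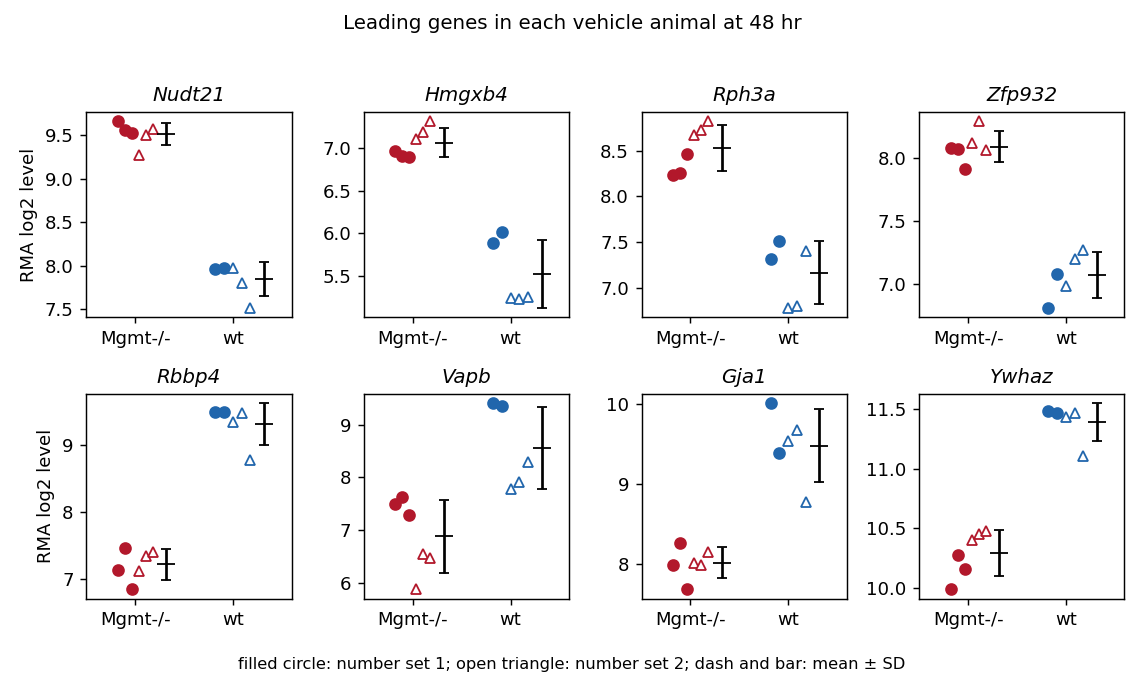
RMA log2 level of 8 genes in each vehicle-treated animal at 48 hr, Mgmt-/- (red, n = 6) left of wt (blue, n = 5); filled circles are number set 1, open triangles number set 2, and the dash and bar are the mean ± SD. The upper row holds rises and the lower row falls. In none of the 8 do the groups overlap, which picking called genes of these same arrays favors. Each panel has its own vertical range.

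In most called genes with several probe sets, the other probe sets of the gene were not called. Among the called genes that have another probe set, the brightest other one had a median difference of 0.11 for 369 genes called higher (0.50 on the called probe set) and -0.09 for 548 genes called lower (-0.57 on the called one). The other probe set moved in the same direction in 253 of 369 and 365 of 548, and was itself called in the same direction in 19 and 44. It was the brighter of the pair in 238 and 421. Where on its transcript each probe set lies was not analysed here.

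A smaller group of genes had the same call on several probe sets, 5 with 3 or more higher and 23 with 3 or more lower. Ywhaz, a 14-3-3 protein often used as a reference gene, was lower on 4 of 7 probe sets (-1.09, -1.09, -0.51 and -0.49). Tfrc, the transferrin receptor, was lower on 5 of 6 (between -0.52 and -0.81), 3 of them control probe sets along its transcript. Tfrc lost the call with the RNA index as a covariate, and Ywhaz kept it. The fatty acid ligase Acsl4 was lower on 3 (-1.05, -1.0 and -0.52), the translation factor subunit Eif2s3x on 3 (-1.23, -0.62 and -0.46), and the translation helicase Eif4a1 on 2 (-1.03 and -0.93). Higher on 3 probe sets each were Mapt, which encodes tau (0.57, 0.46 and 0.38), Zbtb20, a transcription factor of hippocampal and astrocyte development (0.55, 0.50 and 0.41), and Tnrc6a, a partner of Argonaute in microRNA silencing (0.63, 0.62 and 0.54). Against these stand the 12 genes with calls in opposite directions: Gatad2b, a NuRD subunit, had probe sets at -1.19 and 0.69, and Atrx had probe sets at 1.21, -0.68 and -0.53. The genes in this paragraph outside the named-gene rule were picked after their values were seen.

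**Figure D3:**
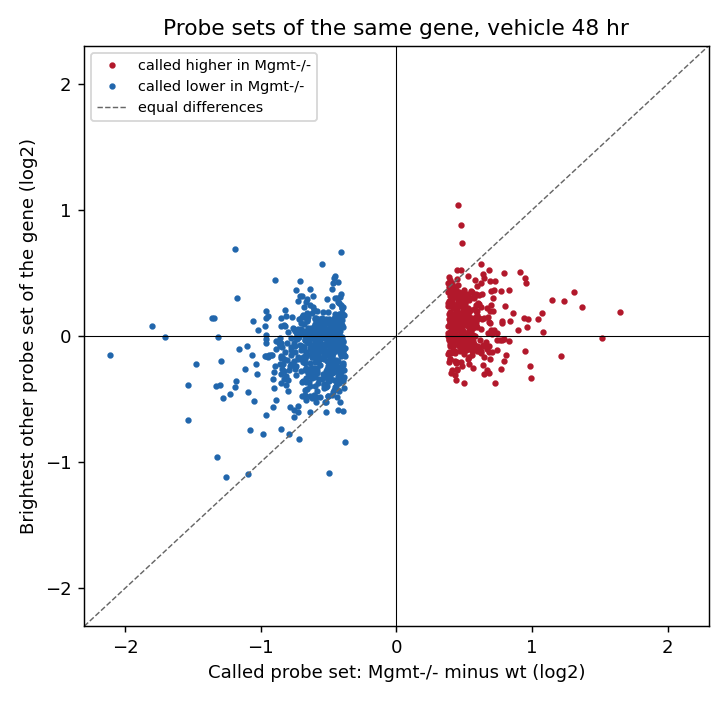
For each called gene with another probe set, the Mgmt-/- minus wt difference (log2) of the called probe set (horizontal) against that of the brightest other probe set of the gene (vertical); red genes were called higher and blue lower, and the dashed line marks equal differences. Most points lie near 0 on the vertical axis, with medians of 0.11 for red and -0.09 for blue, far from the dashed line.

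Immediate early genes are transcribed within minutes of a strong stimulus to a neuron, and their levels follow handling, arousal and the manner of death. Of 28 measured, 7 were called higher and 1 lower, where 2.32 and 3.45% of all genes were, with a median difference of 0.19 and 22 of 28 above 0. The median was -0.001 in set 1 and 0.34 in set 2, a difference that was not tested for the list. The mean level over the 28 genes lay between 7.60 and 8.01 in Mgmt-/- brains and between 7.36 and 7.83 in wt brains, so that the groups overlapped.

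Arc, a synaptic protein that takes part in AMPA receptor removal, read 8.20, 8.57 and 8.93 in Mgmt-/- brains, against 8.31, 7.47, 6.73, 7.78 and 7.96 in wt brains. It was 1.94-fold higher, and 1 wt animal lay within the range of the Mgmt-/- group. The transcription factor Egr2 was 1.88-fold higher, the orphan nuclear receptors Nr4a1 and Nr4a2 1.65-fold and 1.54-fold, Egr1 1.49-fold, and the antiproliferative gene Btg2 and the transcription factor Klf2 1.41-fold each. Egr1 read 10.89, 11.13 and 11.43 in Mgmt-/- brains, against 10.78, 10.63, 10.16, 10.19 and 10.89 in wt brains, with WT.VEH.48.717 level with the lowest Mgmt-/- mouse. Dusp6, which switches off ERK, fell by 0.56 (8.06 ± 0.13 in Mgmt-/- brain and 8.61 ± 0.26 in wt brain). Fos, with 9.37 in Mgmt-/- brain and 8.52 in wt brain, differed by 0.82 and missed the test (adjusted p = 0.0649). Leaving out 1 animal ended the call of Klf2 in 9 of 11 runs, of Egr1 in 7, of Nr4a1 in 6, of Arc in 5, of Egr2 in 3 and of Btg2 in 2, and never that of Nr4a2 or Dusp6. The Nr4a2 call rests on 1 of 6 probe sets, and the brightest of the others differed by -0.12. All 8 of these genes lost the call once the RNA index was added to the fit, Nr4a2 and Dusp6 among them.

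**Figure D4:**
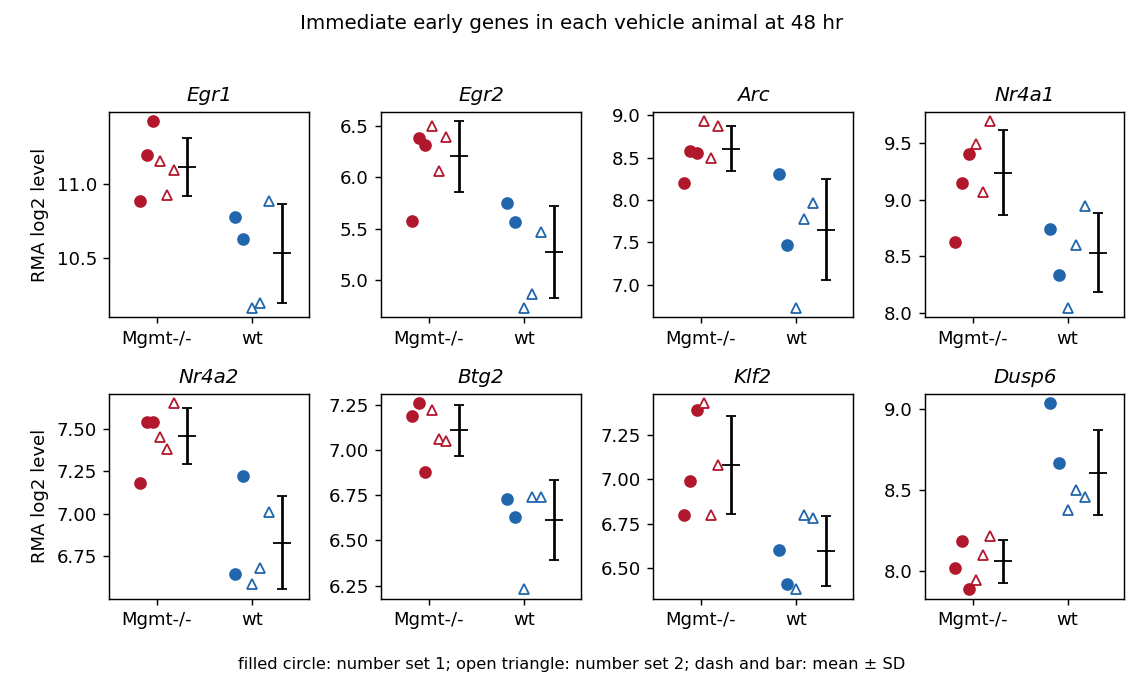
RMA log2 level of the 8 called immediate early genes in each vehicle-treated animal at 48 hr, Mgmt-/- (red, n = 6) left of wt (blue, n = 5); filled circles are number set 1, open triangles number set 2, and the dash and bar are the mean ± SD. The 7 higher genes have Mgmt-/- means above wt means with wt values spread widely, and Dusp6 has its Mgmt-/- values below all wt values; each panel has its own vertical range.

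Many of these genes are turned on through CREB, which binds the cAMP response element, and the promoters show its core. The 250 bases before the annotated start are given for the 4 called genes that have a single window in the RefSeq-based table (GRCm38.p6), 5′ to 3′ on the gene's strand, with matches of TGACG on either strand in capitals (CGTCA is the same match on the other strand, and the 2 overlap in TGACGTCA).
Btg2, chr1:134079156-134079405, minus strand: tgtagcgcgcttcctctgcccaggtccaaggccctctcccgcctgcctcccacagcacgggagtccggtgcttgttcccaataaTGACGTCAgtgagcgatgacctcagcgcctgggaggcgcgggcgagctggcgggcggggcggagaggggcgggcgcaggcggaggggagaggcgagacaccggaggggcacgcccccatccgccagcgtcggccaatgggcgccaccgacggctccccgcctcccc
Klf2, chr8:72318812-72319061, plus strand: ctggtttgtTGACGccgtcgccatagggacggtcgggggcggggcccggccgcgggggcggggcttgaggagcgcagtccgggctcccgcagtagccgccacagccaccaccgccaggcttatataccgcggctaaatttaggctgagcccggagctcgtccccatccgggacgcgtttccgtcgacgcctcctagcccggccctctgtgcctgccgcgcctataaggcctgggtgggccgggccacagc
Nr4a1, chr15:101266596-101266845, plus strand: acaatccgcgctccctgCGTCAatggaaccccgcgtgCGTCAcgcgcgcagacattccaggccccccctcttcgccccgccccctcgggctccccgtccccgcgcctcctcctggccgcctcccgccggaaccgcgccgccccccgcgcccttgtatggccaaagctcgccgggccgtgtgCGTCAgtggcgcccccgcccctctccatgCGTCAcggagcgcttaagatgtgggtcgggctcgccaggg
Nr4a2, chr2:57124004-57124253, minus strand: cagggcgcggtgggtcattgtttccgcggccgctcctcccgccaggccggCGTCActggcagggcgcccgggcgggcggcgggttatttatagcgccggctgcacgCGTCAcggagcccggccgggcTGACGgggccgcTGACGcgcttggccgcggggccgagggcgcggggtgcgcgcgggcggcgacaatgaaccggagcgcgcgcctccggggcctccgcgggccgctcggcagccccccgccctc
Nr4a1 and Nr4a2 had 4 matches each. Of the 22 immediate early genes with a window, 17 had a match in at least 1, against 19.8% of all 27025 genes with a window. A match describes these letters and is no sign of binding.

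Of 20 measured chaperones, folding enzymes and stress genes of the endoplasmic reticulum 5 were called lower and 0 higher, where 3.45% of all genes were lower. Their median difference was -0.09 (-0.19 in set 1 and -0.02 in set 2). Canx, the lectin chaperone calnexin, was 2.17-fold lower, at 8.45, 8.69 and 9.04 in Mgmt-/- brains and 9.91, 9.94, 9.83, 9.95 and 9.40 in wt brains. The disulfide isomerases Pdia4 and Pdia3 were 1.6-fold and 1.48-fold lower, the chaperone Hsp90b1 1.4-fold and the stress transcription factor Atf4 1.39-fold. The Hsp90b1 call was lost in 8 of 11 runs that each left out 1 animal, and with the RNA index as a covariate Pdia4, Pdia3 and Atf4 lost theirs. The brightest Canx probe set differed by -0.26 and was not called. The brightest other Atf4 probe set differed the other way, by 0.24, and those of Pdia4, Pdia3 and Hsp90b1 by -0.03, -0.05 and -0.08. Among sterol synthesis and transport genes, Insig1 (-0.54), Stard4 (-0.51) and Hmgcs1 (-0.50) were called lower of 20 measured, and 0 higher, where 3.45 and 2.32% of all genes were. Hmgcs1 lost the call in 10 of 11 runs without 1 animal and Stard4 in 4, and a brighter Hmgcs1 probe set differed by -0.038. Among heat shock and cold-inducible genes Cirbp, the cold-inducible RNA-binding protein, was 1.74-fold lower and Fkbp4 1.34-fold lower, of 17 measured, the call of Fkbp4 being lost in 7 of 11 runs without 1 animal. Insig1, Stard4, Cirbp and Fkbp4 lost the call with the RNA index as a covariate, and Hmgcs1 kept it.

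Of 28 splicing regulators 7 were called lower and 1 higher, where 3.45 and 2.32% of all genes were, with a median difference of -0.07. Pnisr was 1.96-fold lower, Thrap3 1.82-fold, the helicase Ddx5 1.56-fold, Srsf1 1.54-fold on the first of 3 called probe sets, the neuronal splicing factor Nova1 1.49-fold, Luc7l2 1.42-fold and Son 1.39-fold, while Rbm39 was 1.48-fold higher on a dim probe set. Without 1 animal Luc7l2 and Rbm39 lost the call in 7 of 11 runs each, Ddx5 in 3 and Son in 2, and with the RNA index as a covariate all of these splicing regulators but Pnisr lost it. The brightest other probe sets of Son, Luc7l2 and Rbm39 differed the other way, by 0.37, 0.19 and -0.26. Those of Pnisr, Thrap3, Ddx5, Srsf1 and Nova1 were lower, as the called ones were. Of 30 chromatin regulators 6 were called higher and 3 lower, with Atrx under both, against 2.32 and 3.45% of all genes. The higher ones besides Atrx were the DNA methyltransferase Dnmt3a (1.75-fold), the SWI/SNF subunits Arid1a (1.52-fold), Smarca2 (1.45-fold) and Smarcc1 (1.36-fold) and the histone methyltransferase Kmt2a (1.32-fold), and the lower ones besides Atrx were the cohesin subunit Rad21 (1.88-fold) and the histone deacetylase Hdac2 (1.38-fold). The call was lost without 1 animal in 8 of 11 runs for Smarca2, 7 for Hdac2, 6 each for Dnmt3a and Kmt2a, 5 for Rad21 and 4 for Smarcc1. All of these chromatin regulators but Atrx and Smarcc1 lost the call with the RNA index as a covariate. The brightest other probe sets of Dnmt3a, Smarca2 and Smarcc1 differed the other way, by -0.15, -0.224 and -0.258. Those of Arid1a, Kmt2a, Rad21 and Hdac2 differed in the same direction as the called ones, and that of Atrx differed by -0.161. Dnmt3a overlapped between the groups, with WT.VEH.48.713 and WT.VEH.48.715 at 7.0 and 6.93 and the lowest Mgmt-/- mouse at 6.84. Of 14 nuclear and other long RNAs 2 were called higher and 2 lower, with Meg3 under both, against the same shares of all genes. Meg3 and Rian, which share an imprinted locus, were higher (1.15 and 0.60), Norad was lower (-1.71), and the other called Meg3 probe sets differed by 0.57 and -0.67. Meg3 and Rian lost the call with the RNA index as a covariate, and Norad kept it.

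Of 12 measured genes of GABA signaling 2 were called lower and 0 higher, where 3.45 and 2.32% of all genes were. Their median was -0.15, with 9 of 12 below 0. Gabra3, a GABA-A receptor subunit, was lower on both of its probe sets (-0.71 and -0.82), with 7.77, 7.93 and 8.21 in Mgmt-/- brains and 8.85, 8.75, 8.35, 8.53 and 8.76 in wt brains on the first. Gabrb2, another subunit, was 2.27-fold lower on 1 probe set, while the other Gabrb2 probe sets, all brighter, had differences between -0.35 and 0.17 and were not called. Of 18 ionotropic glutamate receptors and scaffolds 1 was called higher and 2 lower, against the same shares of all genes. The kainate subunit Grik5 was 1.4-fold higher, and the AMPA subunit Gria4 (1.48-fold) and the scaffold Dlg4 were lower. The brightest other Gria4 probe set differed the other way, by 0.134. Grik5 and Gria4 lost the call with the RNA index as a covariate, and Dlg4 kept it. Of 9 metabotropic receptors 1 was called higher and 0 lower. The metabotropic receptor Grm5 was 1.92-fold higher with overlap between the groups: its Mgmt-/- values in set 1 (8.57, 8.48 and 8.17) lay below WT.VEH.48.713 and WT.VEH.48.715 (8.62 and 8.76), and the call was lost in 7 of 11 runs without 1 animal.

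Of 7 measured neurotrophins and receptors 2 were called higher and 0 lower, where 2.32 and 3.45% of all genes were. Ntrk3, the receptor of NT-3, read 7.48, 7.69 and 8.16 in Mgmt-/- brains, against 6.99, 7.17, 7.05, 7.11 and 6.69 in wt brains. It was called on 2 of 8 probe sets (0.71 and 0.54). Ntrk2, the receptor of BDNF, was 1.35-fold higher on 1 probe set, a call lost in 8 of 11 runs without 1 animal and with the RNA index as a covariate, and its brightest other probe set differed by -0.12. Among 29 genes listed for MAP kinase, Wnt and insulin signaling 5 were called higher and 5 lower, against 2.32 and 3.45% of all genes. Their median was 0.06. Tcf4 was counted by its symbol alone, so that its call says nothing about Wnt signaling. The PI3-kinase subunits Pik3ca (2.26-fold) and Pik3r1 (1.54-fold) and the kinases Mapk8 (1.80-fold), Araf (1.88-fold) and Mapk10 (1.36-fold) were lower, and the Wnt coreceptor Lrp6 (1.67-fold), the transcription factor Tcf4 (1.41-fold), Foxo1 (1.37-fold), Igf1r (1.33-fold) and Mtor (1.32-fold) were higher. Leaving out 1 animal ended the call of Mtor in 8 of 11 runs, of Igf1r in 7, of Araf in 6, of Foxo1 in 5, of Tcf4 in 2 and of Mapk10 in 1, and the brightest other Mtor probe set differed by -0.18. Pik3r1, Araf, Lrp6, Tcf4, Foxo1, Igf1r and Mtor lost the call with the RNA index as a covariate. Pik3ca, Mapk8 and Mapk10 kept it. The brightest other probe sets of Mapk8, Mapk10, Lrp6 and Tcf4 differed the other way, by 0.142, 0.109, -0.112 and -0.076. That of Mapk8 was brighter than the called one (mean level 9.11 against 5.14). Those of Pik3r1, Araf, Foxo1 and Igf1r differed in the same direction as the called ones. Pik3ca read 5.95, 6.31 and 6.74 in Mgmt-/- brains, against 7.12, 7.69, 7.76, 7.55 and 7.47 in wt brains, and was called on 2 of 6 probe sets, while the brightest one differed by 0.30 without passing the fold threshold.

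The lists that follow are to be set against 2.32% of all genes called higher and 3.45% lower, shares that are not matched for level. Of 22 genes of alkylation and mismatch repair 1 was called: Parp1, which senses strand breaks, was 1.32-fold lower, at 8.08 ± 0.14 in Mgmt-/- brain and 8.47 ± 0.14 in wt brain. That call was lost in 8 of 11 runs without 1 animal and with the RNA index as a covariate. Of 23 p53 targets Btg2 was higher and Plk2 (1.32-fold) and Rrm2b (1.89-fold) were lower, with a median of -0.03. Interferon and antigen presentation genes had 0 of 21 called, oxidative phosphorylation 0 of 31 and cytosolic ribosomal proteins 0 of 25, with medians of 0.01, 0.05 and 0.06. Clock genes had 1 of 19 called, Npas2 (1.37-fold lower, lost in 4 of 11 runs without 1 animal). Of 28 glucocorticoid-responsive genes Klf9 (1.33-fold) and Fam107a (1.6-fold) were higher and Ddit4 (1.39-fold) lower, with the call of Ddit4 lost in 8 of 11 such runs, of Fam107a in 6 and of Klf9 in 2. Btg2, Plk2, Rrm2b, Npas2, Klf9 and Ddit4 lost the call with the RNA index as a covariate, and Fam107a kept it. The brightest other probe sets of Fam107a and Parp1 differed the other way, by -0.123 and 0.183, and that of Klf9 differed by 0.066. That of Fam107a was much brighter than the called one (mean level 12.45 against 7.27).

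Markers of glia and neurons were looked at because half-brains can differ in what they contain. Of 18 astrocyte markers 0 were called higher and 3 lower, where 2.32 and 3.45% of all genes were. The lower ones were Gja1, the glial transcription factor Sox9 (1.58-fold) and the water channel Aqp4 (1.46-fold). The Aqp4 call was lost in 6 of 11 runs without 1 animal. The brightest other Sox9 probe set differed the other way, by 0.29, and that of Aqp4 by -0.11, neither being called. The median over the 18 markers was 0.02, and their mean level lay between 10.32 and 10.44 in Mgmt-/- brains and between 10.38 and 10.42 in wt brains. Of 17 oligodendrocyte markers Cldn11 (1.43-fold) and Mog (1.34-fold, lost in 3 such runs) were lower, with a median of -0.02 and mean levels of 9.63 to 9.79 in Mgmt-/- brains and 9.72 to 9.83 in wt brains. Aqp4, Cldn11 and Mog lost the call with the RNA index as a covariate, and Gja1 and Sox9 kept it. Microglia (16 genes), endothelium and pericytes (19) and oligodendrocyte precursors (8) had 0 called. Smooth muscle and meningeal markers had 17 of 17 genes above 0 on the brightest probe set and 0 called, with a median of 0.08 and mean levels of 7.41 to 7.73 in Mgmt-/- brains and 7.34 to 7.54 in wt brains.

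Among neuron and region markers, excitatory neurons had 2 of 16 called higher, inhibitory neurons 1 of 16 and hippocampus 1 of 14. Called lower were 1 of 17 each in the cerebellum and olfactory bulb lists and 1 of 14 in the thalamus list. The striatum list had 2 of 14 called higher and 2 lower, and hypothalamus (17) and brainstem monoamine neurons (13) had 0 called. These counts are to be set against 2.32% of all genes called higher and 3.45% lower. Camk2a, a kinase of forebrain excitatory neurons, was 1.64-fold higher with no overlap, Foxp2 1.33-fold and the interneuron glycoprotein Reln 1.36-fold higher, and Prox1, a dentate granule cell factor, 1.38-fold higher. Synpr, a synaptic vesicle protein rich in the olfactory bulb, was 1.71-fold lower and Zic1, a cerebellar and thalamic factor, 1.33-fold lower. Without 1 animal the call of Foxp2 was lost in 9 of 11 runs, of Prox1 in 8, of Reln in 7 and of Zic1 in 4, and the brightest other Prox1 probe set differed by -0.079. The striatal genes Foxp1 (0.40 and -0.57) and Pde10a (0.44 and -0.42) had probe sets called in both directions. Synpr kept the call with the RNA index as a covariate, and the other region markers named here lost it. The olfactory bulb list had mean levels of 6.67 to 7.52 in Mgmt-/- brains and 6.68 to 7.47 in wt brains, a wide spread within both groups. Liver transcripts, which mark blood or carried-over tissue, had 0 of 13 called and a median of -0.10, and choroid plexus, pituitary, erythroid and muscle lists had 0 called. The part of these markers in other results was not tested.

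Genes known to differ between C57BL/6 substrains or between inbred strains were included because the substrain of each line is not stated. Of 13 measured 1 was called higher and 2 lower, where 2.32 and 3.45% of all genes were. Nnt, the mitochondrial transhydrogenase that carries a deletion in C57BL/6J mice, was lower on 1 of 3 probe sets, at 7.16, 7.62 and 8.24 in Mgmt-/- brains and 8.39, 8.77, 8.51, 8.30 and 8.41 in wt brains. The brightest Nnt probe set differed by -0.17 and was not called. Wdfy1 was 1.63-fold lower and Ide, insulin-degrading enzyme, 1.3-fold higher, and Erdr1 differed by -1.03 with adjusted p = 0.197. The Y-linked gene Uty, from a separate list of sex chromosome genes, was 1.35-fold lower with overlap between the groups. Leaving out 1 animal ended the calls of Ide and Uty in 9 of 11 runs each and of Wdfy1 in 4. Nnt, Wdfy1 and Uty lost the call with the RNA index as a covariate, and Ide kept it.

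The vehicle comparison at other times used other animals, 36 arrays at 6, 24 and 168 hr. In a fit over those 36 arrays 1354 of the 1360 probe sets kept the sign of their 48 hr difference, 792 (58.2%) were called in the same direction and 0 in the opposite one; that fit called 4.7% of all probe sets. Taken one time at a time, the same call was made for 52.3% at 6 hr, 996 (73.2%) at 24 hr and 82 (6.03%) at 168 hr, which are 42.3, 29.9 and 56.6% of the calls made at those times. Over all probe sets 3.72, 7.39 and 0.322% were called at 6, 24 and 168 hr. At 168 hr 94.4% of the 1360 kept the sign of their 48 hr difference. At 168 hr the median differences of the probe sets called at 48 hr were smaller, at 0.21 for those higher and -0.34 for those lower. A direct test of the 48 hr difference against the mean of the other times called 0 probe sets (limma), with 2565 at an unadjusted p under 0.05.

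Zfp932 had differences of 1.01, 0.96, 1.04 and 1.02 at 6, 24, 48 and 168 hr. Nudt21 read 1.51, 1.65, 1.65 and 0.81, and Rbbp4 read -2.31, -2.03, -2.11 and -1.24. Of the 15 largest rises 14 were called over the other times together, Smg1 (0.27) being the one that was not, and so were all 15 of the largest falls. Of the immediate early genes, Arc differed by 0.33 (adjusted p = 0.102), Egr1 by 0.32 and Nr4a1 by 0.41, and the list median was 0.08, 0.10 and 0.08 at 6, 24 and 168 hr. Foxp2 (-0.03), Dnmt3a (0.02) and Ide (0.05) had differences near 0 at the other times.

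**Figure D5:**
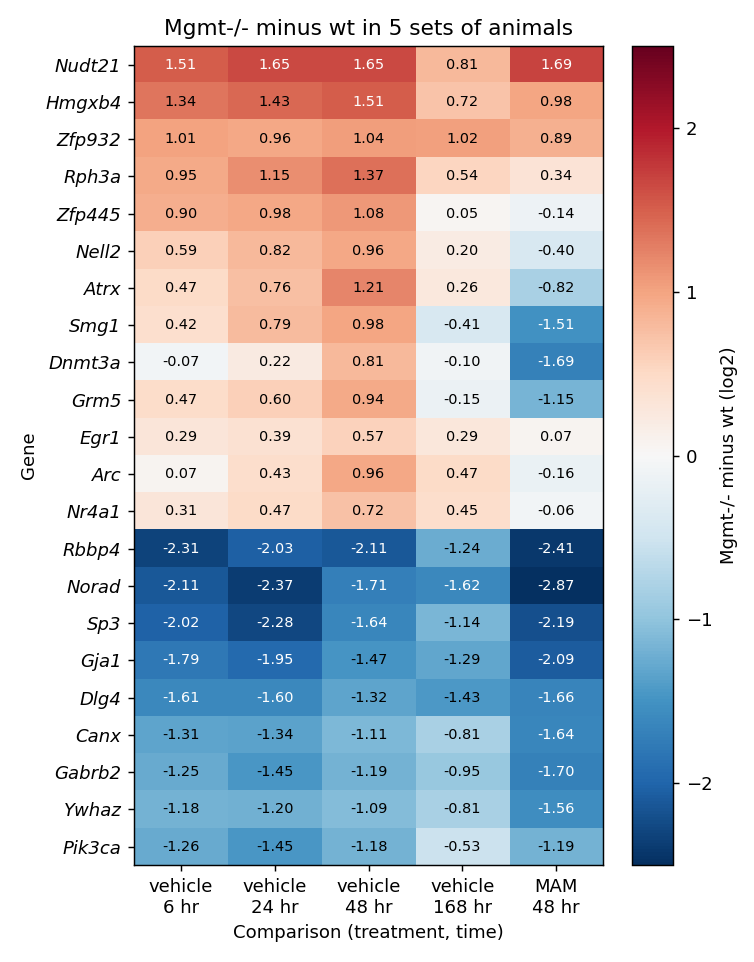
Mgmt-/- minus wt difference (log2, color and number) of 22 genes called at 48 hr after vehicle, in the vehicle comparisons at 6, 24, 48 and 168 hr and in the MAM comparison at 48 hr, each in its own animals. The falls in the lower rows are negative in every column, while rises such as Zfp445, Atrx, Smg1 and Dnmt3a are near 0 or negative after MAM.

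After MAM at 48 hr, the 12 arrays of other mice gave 771 (56.7%) of the 1360 probe sets the same call, where 9.55% of all probe sets were called. Probe sets called lower after vehicle had a median of -0.70 after MAM, and all 15 of the largest falls were called again, while those called higher had a median of 0.18 and 4 of the 15 largest rises were called again. In 33 probe sets the call turned round, each of them higher in Mgmt-/- brain after vehicle and lower after MAM. They name 27 genes, and some of them name no gene. These were picked for opposite calls in the same arrays, so their values are a description with no test. Dnmt3a differed by 0.81 after vehicle and -1.69 after MAM, Smg1 by 0.98 and -1.51, Grm5 by 0.94 and -1.15, Atrx by 1.21 and -0.82 and Nell2 by 0.96 and -0.40. Dab1, the adaptor of reelin signaling, turned on 2 probe sets (0.66 and -0.78, 0.83 and -0.62), and Map1b (0.86 and -0.92), Camk1d (0.74 and -1.17), Rbfox3 (0.53 and -0.55) and Nr2f2 (0.44 and -0.42) were among the others, chosen after their values were seen. After vehicle the brightest other probe sets of Dnmt3a, Smg1, Atrx, Rbfox3 and Nr2f2 differed by -0.15, -0.236, -0.161, -0.084 and -0.215. Those of Grm5, Nell2, Dab1 and Map1b were higher, as the called ones were.

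The called genes were longer and brighter than the rest. Genes called higher had a median genomic length of 76.3 kb and genes called lower 33.6 kb, against 20.3 kb over all genes measured. Among genes with a mean level above 6 the lengths were 79.9, 31.4 and 24.0 kb. The GC content of the promoter window was 64.3 and 64.0% in the median, against 58.7% over all genes and 61.7% over those above the level of 6. Called genes lay on every autosome, with the share called between 3.61% on chromosome 7, which holds Mgmt, and 7.41% on chromosome 18.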

How the data were processed

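The authors hybridised RNA of each half-brain to an Affymetrix mouse expression array and deposited 1 log2 value per probe set, computed by RMA with the affy package (versions not given in the sources used here). These values were taken without further normalization. There are 45101 probe sets, of which 34958 name 1 gene, 932 several and 9211 none in the platform annotation; genes were also matched to GRCm38.p6 by gene ID (34754 probe sets). All value columns belong to a sample.

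The 11 arrays were fitted in R 4.3.3 (limma 3.58.1) on genotype and number set, and P values were adjusted by Benjamini-Hochberg over all 45101 probe sets. The number of arrays limits the precision. Fits of other animals used the same terms, plus time where times were pooled. Gene lists were described on the probe set with the highest mean per gene. The calculation was tested on simulated data. Figures were drawn in Python 3.11.15 by matplotlib 3.10.9.

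By rule, the text names Mgmt, the 15 largest called rises and falls with 1 direction in both number sets, the called members and the most different members of each list, called genes within 10 Mb of Mgmt, and up to 10 genes also called at other times or after MAM; exceptions are marked. The comparison, lists and rule were chosen with earlier results of these data known. No replicate numbers are shared between the genotypes. The labels and the methods name different RNA extraction procedures and array facilities, and whether all arrays were normalized together is not stated. The alternatives were other designs, tests, filters, normalizations and weights, each number set alone, and each animal left out.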

Additional observations from a re-analysis of the deposited data

Results flagged for a closer look

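For 118 named genes the highest and lowest animal of each group were compared with the rest of the group by their gap over the range (Dixon), and 15 of 236 groups had an animal apart; chance gives about 1 in 20. Of the 15, 11 were wt animals, 7 of them WT.VEH.48.717. WT.VEH.48.717 read 8.77 for Rbbp4 (others 9.34 to 9.50), 6.82 for Zdhhc17, 5.69 for Usp9x, 9.40 for Canx, 11.11 for Ywhaz and 8.77 for Ap2a2, each below the other wt animals and nearer to the Mgmt-/- brains, and 8.73 for Igf1r, above them (others 8.27 to 8.32). WT.VEH.48.113 read 11.92 for Dynll2, 5.39 for Foxp2 and 9.76 for Ddx5, each the lowest of its group, and WT.VEH.48.713 read 6.23 for Btg2, also the lowest. Among Mgmt-/- brains, MGMT.VEH.48.313 read 5.85 for Akap9 and 4.89 for Tial1, the lowest of the group, MGMT.VEH.48.315 read 9.0 for Norad (others 8.26 to 8.47) and MGMT.VEH.48.317 read 8.10 for Ide (others 8.39 to 8.53).

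The genotype difference of Anp32a was tested to differ between the number sets, with set 2 minus set 1 at -1.74. The Mgmt-/- values were 8.12, 8.34 and 7.88 in set 1 and 7.56, 7.73 and 7.72 in set 2, and the wt values were 8.60 and 8.37 in set 1 and 9.90, 9.86 and 9.59 in set 2.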

How the results depend on the processing

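Counts are given here as percent of the 18194 genes measured, and were 2.32% higher and 3.45% lower in Mgmt-/- brain. They were 0.555 and 0.83% with the ordinary linear model, 1.48 and 0.687% when the RNA 3'/5' index was added as a term, and 0.0055 and 0.0824% in number set 1 alone, which has 5 arrays, against 3.13 and 3.26% in number set 2 alone. With array weights 3.67% were higher, without MGMT.VEH.48.317 and WT.VEH.48.113 3.57%, and without MGMT.VEH.48.313 and MGMT.VEH.48.315 1.15%; the last pair of choices was made after seeing the data. Leaving out 1 animal gave 1.19 to 3.63% higher and 1.94 to 3.9% lower. The most came without MGMT.VEH.48.317, and the share higher moved by over 1.5 times also without MGMT.VEH.48.313 (1.52%), MGMT.VEH.48.913 (1.25%), MGMT.VEH.48.915 (1.39%), WT.VEH.48.713 (1.19%) or WT.VEH.48.715 (1.39%). The share lower did so without MGMT.VEH.48.913 (1.94%), MGMT.VEH.48.915 (2.14%), WT.VEH.48.713 (2.01%) or WT.VEH.48.715 (2.1%). The RNA 3'/5' index difference of 0.093 was 0.071 to 0.111 when 1 animal was left out, losing p under 0.05 without WT.VEH.48.113 or WT.VEH.48.115, and was 0.009 on Gapdh alone. No number set term, the study's design with its laboratory filter, all 48 hr arrays in 1 fit, no fold threshold, dim probe sets left out, cyclic loess, the variance trend and the filter on set differences kept both counts within 1.5 times. Over 118 named genes and 2970 combinations, 2272 kept their side of the threshold, 697 lost it and 1 changed sign, Mgmt (0.037 without MGMT.VEH.48.313 and MGMT.VEH.48.315), which is not called. The causes were not tested. No paired analysis was possible because the genotypes share no animal numbers. The median of ionotropic glutamate receptors was 0.098 on the brightest probe sets and -0.107 on the mean of all probe sets.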
